A study of Drosophila melanogaster with 6 samples.

Results

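Entry into mitosis is driven by Cdk1 bound to a mitotic cyclin, and 10 Drosophila genes of this step were described: the cyclins CycA, CycB and CycB3, the kinase Cdk1, its Cdc25 activators stg and twe, the kinases polo, aurA and gwl, and fzy, which helps to destroy the cyclins afterwards. They were chosen by symbol in the authors' table of genes that differ between tumor and control. Of the 10 genes, 8 had a row in the table, which lists 6156 of 9384 tested genes. Cdk1 and twe had no row under their symbols or their FlyBase identifiers.

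RNA was sequenced from 3 control and 3 tumor samples of the salivary gland imaginal ring, a small band of diploid progenitors where the larval gland meets its duct. Controls, labelled as larvae of the third instar, carried the genotype Actts>GFP. Tumors carried Actts>GFP+NICD, and their stage label gives 7 days kept at 18 °C and then 7 days kept at 29 °C. Both genotypes share GFP and the Actts driver, read here as an actin promoter, active in most cells, whose timing was set by the temperature-sensitive repressor Gal80ts. NICD is the part of the Notch receptor inside the cell, which in the nucleus switches on target genes. No days or temperatures are labelled for controls, so NICD, age and temperature cannot be told apart. Whether replicates are separate animals or pools is not labelled either, and the p-values cover only the variation among these 6 samples, part of which could be technical.

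The files give the authors' own comparison and hold nothing per sample, so total counts per library are unknown and no SD or SE can be computed for the folds of 3 against 3 samples. A positive log2 fold change means higher in tumor, and CPM is the mean over libraries of counts per 1000000 reads. A level in 1 group is an estimate computed here from the authors' mean CPM and fold change. It adds no information to those values and gives scaled CPM, not a share of reads. In whole tissue, more cells of a type and more RNA per cell cannot be told apart. In the authors' deposited table the log2 fold change of N itself was 7.56, where NICD transgene reads may be included.

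Cdk1 is held inactive by phosphorylation until a Cdc25 phosphatase, String (stg) in most dividing fly cells, removes the inhibitory phosphates. Polo and Aurora A act on centrosomes and help to switch Cdk1 on, Greatwall restrains the phosphatase that would undo its work, and Fizzy, the fly Cdc20, then directs the anaphase-promoting complex to the cyclins. Polyploid larval cells, such as the secretory cells of the salivary gland, replicate their DNA without dividing and do without this machinery. In ovarian follicle cells Notch signaling is known for the opposite of proliferation: it lowers stg and moves cells from mitotic cycles into endocycles.

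All 8 listed genes rose in tumor, from 2.99-fold for fzy to 10.6-fold for stg in the authors' deposited table. Of the 10 genes chosen, 8 were thus called higher and 2 have no call, whereas of all tested genes 65.6% were called, 34.0% as higher and 31.6% as lower. The table holds called genes only, so a gene with a row had passed the authors' test, and 51.8% of all rows were in the higher direction. On the log2 scale the median change of the 8 genes was 1.80, against 0.57 for all listed genes in the authors' deposited table. Of the 10 chosen genes 8 were higher at an adjusted p below 0.01, beside 26.2% of all tested genes and 40.0% of listed genes. The same 8 were at least 2-fold higher, beside 26.7% of tested and 40.6% of listed genes.

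**Figure D1:**
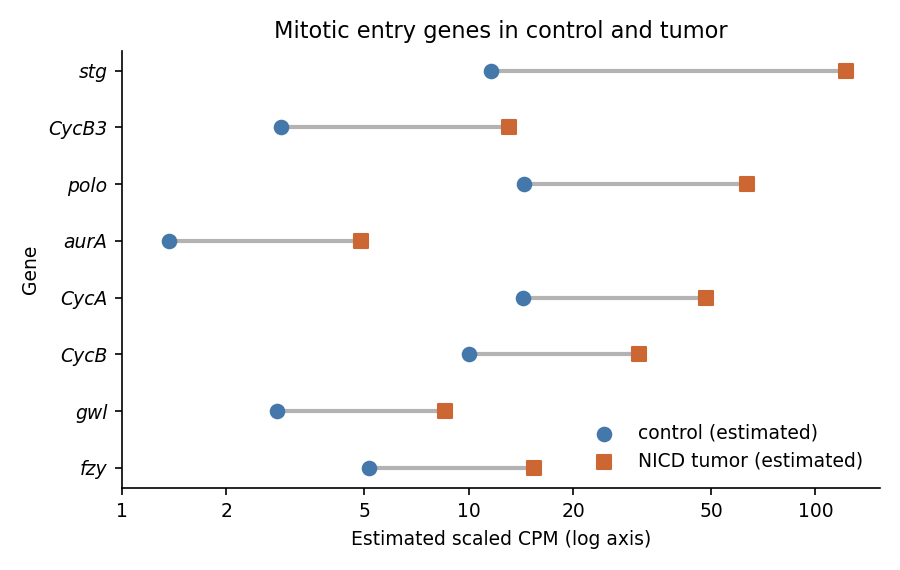
Estimated scaled CPM (horizontal log axis) of the 8 listed mitotic entry genes in control (circles) and tumor (squares), ordered by fold change, with no error bars because the values used hold no spread. Every square lies to the right of its circle, and the widest distance is that of stg, from 11.6 to 122 scaled CPM.

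The mitotic cyclins rose together. CycA, whose product is needed for mitosis and also helps to block re-replication, had a mean of 31.3 CPM and rose 3.38-fold in the authors' deposited table (log2 fold change 1.76, adjusted p = 4.06e-05). Its estimated level went from 14.3 scaled CPM in control to 48.2 in tumor, and its p ranked 517 among the 6156 listed genes, the smallest p of the 8. CycB, the cyclin of the main Cdk1 complex of mitosis, had a mean of 20.4 CPM and rose 3.09-fold in the authors' deposited table (log2 fold change 1.63, adjusted p = 0.00044). CycB3, whose product acts late in mitosis around anaphase, was the rarest of the cyclins at a mean of 7.97 CPM and rose 4.54-fold in the authors' deposited table (log2 fold change 2.18, adjusted p = 0.00071).

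Per kilobase of transcript, CycA stood above CycB and CycB above CycB3 in both groups. Estimated scaled CPM per kilobase were 5.22, 3.85 and 1.08 in control and 17.6, 11.9 and 4.89 in tumor. The ratio of CycA to CycB was 1.36 in control and 1.48 in tumor, and that of CycB to CycB3 was 3.58 and 2.44. Whether the folds of the cyclins differ from each other was not tested, since the files hold no spread per gene.

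Cdk1, the kinase that these cyclins activate, was not in the table. It was either tested and not called or not tested, and no fold can be given for it. Its annotated transcript is short, at 1082 bases. Listed genes in that length class had a median log2 fold change of -1.06, which covers called genes only and gives no value for Cdk1. Whether length bears on the missing row was not tested.

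The Cdc25 gene stg had the largest change of the set. It rose 10.6-fold in the authors' deposited table (log2 fold change 3.40, adjusted p = 0.00022), at a mean of 66.99 CPM. This is 2.33 times the fold of CycB3, the next member, and it ranked 543 from the highest of the 6156 listed genes. Estimated levels were 11.6 scaled CPM in control and 122 in tumor. Per kilobase stg stood at 1.13 times CycB in control and 3.85 times CycB in tumor, and it made up 18.5% of the summed scaled CPM of the 8 genes in control and 39.9% in tumor. The other Cdc25 gene, twe, which is known for its role in meiosis and the early embryo, was not in the table.

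The kinases that act with Cdk1 rose as well. The authors' deposited table gives polo, a kinase of centrosome maturation, spindle assembly and Cdk1 activation, at a mean of 39.0 CPM and 4.42-fold higher (log2 fold change 2.14, adjusted p = 0.00027). Next in order was aurA, the Aurora A kinase gene that also activates Polo. It had the lowest mean CPM of the 8, at 3.13, and was 3.58-fold up in the authors' deposited table (log2 fold change 1.84, adjusted p = 0.0021). Per kilobase of transcript its mean was 1.99 CPM, against 1.86 for gwl. The Greatwall kinase gene gwl had a mean of 5.66 CPM and rose 3.05-fold in the authors' deposited table (log2 fold change 1.61, adjusted p = 0.0011). The Cdc20 gene fzy had a mean of 10.3 CPM and rose 2.99-fold in the authors' deposited table (log2 fold change 1.58, adjusted p = 0.0013). Without stg, the 7 genes lay within 0.60 of each other on the log2 scale.

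Some of these genes overlap others on the opposite strand, and the strand setting of the counting is not given in the sources used here. In the BDGP6 annotation the exons of aurA share 153 bases with those of CG12213, which had a mean of 30.2 CPM and rose by 0.66 on the log2 scale in the authors' deposited table. Exons of fzy share 62 bases with cact, which had no row, and exons of twe share 98 bases with EndoGI, which fell by 0.93 on the log2 scale in the authors' deposited table. Unless counting used strand, reads from these stretches cannot be told apart. No exon overlap with another gene was found for CycA, CycB, CycB3, Cdk1, stg, polo and gwl.

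**Figure D2:**
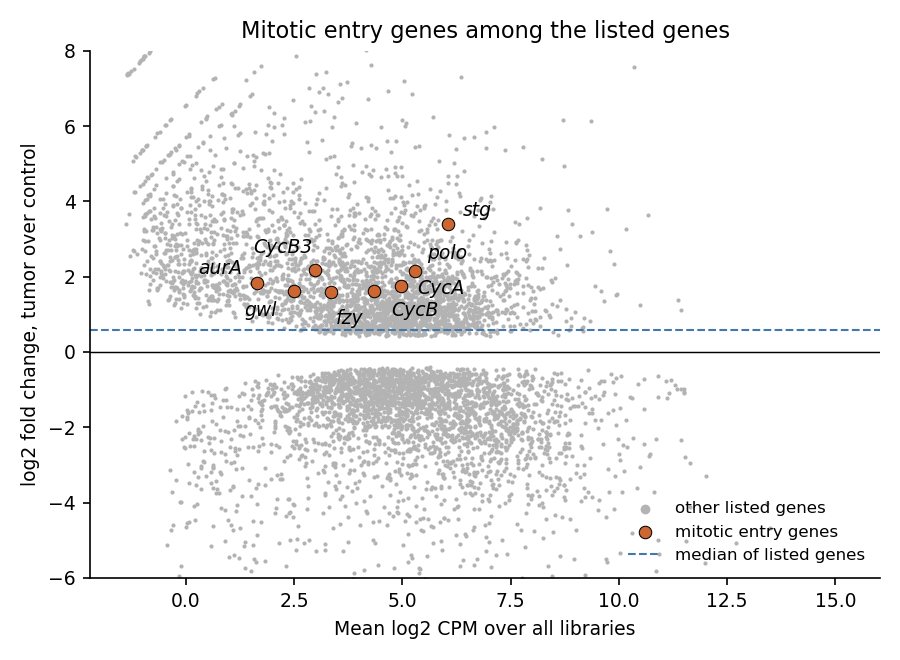
Log2 fold change (vertical axis) against mean log2 CPM over all libraries (horizontal axis) for the listed genes, with the 8 mitotic entry genes as larger labelled points, the dashed line at the median of listed genes (0.57) and 163 genes beyond the vertical limits not drawn. All 8 lie above the dashed line, and the empty band around 0 arises because only called genes are listed.

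Some partners of Polo and Aurora A rose. Of 6 such genes 4 were listed (66.7%, close to the 65.6% of all tested genes called) and each of the 4 was higher, where 34.0% of tested genes were, the median being 1.73 on the log2 scale in the authors' deposited table. Map205, whose product binds Polo on microtubules, was 3.99-fold higher, and bora, which encodes an activator of Aurora A, rose 3.57-fold in the authors' deposited table. The spindle gene mei-38 was 3.07-fold higher and SAK, the Polo-like kinase gene of centriole duplication, 2.43-fold up in the authors' deposited table. The Aurora B gene aurB and the Polo inhibitor gene mtrm were not listed.

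Regulators of Cdk1 were mostly absent from the table. Of 9 genes only trbl and CycH were listed (22.2%, against 65.6% of all tested genes). In the authors' deposited table trbl, whose product promotes the breakdown of String, was 2.90-fold higher (adjusted p = 5.17e-05). The log2 fold change of stg exceeded that of trbl by 1.87. CycH, the cyclin of the Cdk-activating kinase, fell 1.87-fold in the authors' deposited table, a direction that turned under scaling to listed ribosomal protein genes or to equal summed CPM. The inhibitory kinase genes Wee1 and Myt1 and the Cdk1 subunit genes Cks30A and Cks85A were not listed. Nor were Cdk7 and Mat1, genes of the Cdk-activating kinase complex, or the checkpoint kinase gene grp.

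Downstream of Greatwall, 1 of 4 genes was listed (25%, against 65.6% of all tested genes). The phosphatase PP2A is the target of this branch, and its catalytic subunit gene mts fell 1.64-fold in the authors' deposited table (adjusted p = 0.0026), a direction that turned under those same scalings. Greatwall's substrate gene endos, the B55 subunit gene tws and the scaffold subunit gene Pp2A-29B were not listed.

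The anaphase-promoting complex marks the cyclins for breakdown once Fizzy joins it, and the spindle checkpoint restrains Fizzy until chromosomes are attached. Of 17 genes of the complex, its co-activators, inhibitor and partner enzymes, 9 were listed (52.9%, below the 65.6% of all tested genes). The 17 include Cdc26, whose symbol was not found and which counts as not listed. Of the 9, 8 were higher (47.1% of the 17, against 34.0% of all tested genes) and 1 lower (5.88%, against 31.6%). The median of the 9 was 1.23 in the authors' deposited table. Of the 8 higher genes, 4 had an adjusted p below 0.01 and 5 were at least 2-fold higher. Among those 5, APC7, cort and fzr2 had low means, at 1.34, 1.09 and 0.827 CPM. The subunit gene mr was among the 8 higher genes (log2 fold change 0.55 in the authors' deposited table). It lay at -0.02 with the median of listed genes set to 0. The subunit gene shtd was 4.37-fold higher and Rca1, which encodes an inhibitor of the complex that protects cyclins in interphase, 2.34-fold up in the authors' deposited table. The lower gene, APC10, fell 1.64-fold in the authors' deposited table, again except under scaling to ribosomal protein genes or equal sums. The co-activator gene fzr, the counterpart of fzy that works outside mitosis and in endocycles, was not listed.

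Of 10 checkpoint genes 9 were listed (90.0%, against 65.6% of tested genes). Of the 10, 8 were higher (80%, against 34.0% of tested genes) and 1 lower (10%, against 31.6%). The median of the 9 listed genes was 1.13 in the authors' deposited table. The kinetochore gene rod was 6.78-fold higher and BubR1, whose product binds Fizzy, 4.51-fold up in the authors' deposited table. Less change was seen for Bub1, at 1.57-fold, and Mad1, at 1.42-fold, in the authors' deposited table, and on the log2 scale they lay at 0.08 and -0.06 once the median of listed genes was set to 0. The lower gene, Zw10, was at -0.62 in the authors' deposited table and at 0.32 with ribosomal protein genes as reference.

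Cyclin and Cdk genes outside mitosis were divided. Of 9 other cyclin genes 5 were listed (55.6%, against 65.6% of all tested genes). Lower calls made up 44.4% of the 9 and higher calls 11.1%, against 31.6% and 34.0% of all tested genes. CycC, CycD, CycH and CycK were lower and CycT higher in the authors' deposited table. Their median of -0.57 became positive under scaling to ribosomal protein genes or equal sums. Differences between genes do not depend on such scaling. The lowest mitotic cyclin, CycB, exceeded the highest of the other cyclins, CycT (2.32-fold up in the authors' deposited table), by 0.42 on the log2 scale. CycT and CycK encode cyclins of transcription, not of the cell cycle.

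Among 10 other Cdk genes 6 were listed (60%, against 65.6% of all tested genes). Of the 10, 4 were lower (40%, against 31.6% of all tested genes) and 2 higher (20%, against 34.0%). Their median of -0.68 in the authors' deposited table likewise became positive under those scalings. Cdk2, the S phase kinase gene, fell 2.28-fold in the authors' deposited table (adjusted p = 0.0033), and still lower under scaling to ribosomal protein genes but not to equal sums. Its log2 fold change lay 2.94 below that of CycA. All 8 mitotic entry genes lay above every listed other cyclin and Cdk, and these differences were not tested.

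Genes of S phase entry and the endocycle were divided. Of 14 genes 7 were listed (50%, against 65.6% of all tested genes). Of the 14, 5 were lower (35.7%, near the 31.6% of all tested genes called lower) and 2 higher (14.3%, against 34.0%). Their median of -0.73 in the authors' deposited table became positive under scaling to ribosomal protein genes or equal sums. The licensing genes Cdc6 and Orc1 were 3.60-fold and 2.60-fold down in the authors' deposited table, and lower too with ribosomal protein genes as reference, but Orc1 was higher with equal sums. The Cdk2 inhibitor gene dap rose 1.44-fold in the authors' deposited table (adjusted p = 0.011), and lay at -0.04 on the log2 scale once the median of listed genes was set to 0. CycE, E2f1 and fzr were not listed. Among listed genes, CycD, CycH and Cdk2 each stand in more than 1 of the related lists. So do Cdk4, Cdk7, CycE, E2f1, Dp, Rbf and fzr, which had no row.

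Of 12 genes of transcriptional control of the cycle, 5 were listed (41.7%, against 65.6% of all tested genes). Of the 12, 2 were higher (16.7%, against 34.0% of all tested genes) and 3 lower (25%, against 31.6%). Their median of -0.42 in the authors' deposited table turned positive under scaling to ribosomal protein genes or equal sums. Myb, whose product activates G2-M genes including mitotic regulators, was 2.73-fold higher (adjusted p = 7.04e-05), and E2f2, which encodes a repressing E2F, 2.40-fold down in the authors' deposited table. With equal sums E2f2 was higher.

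**Figure D3:**
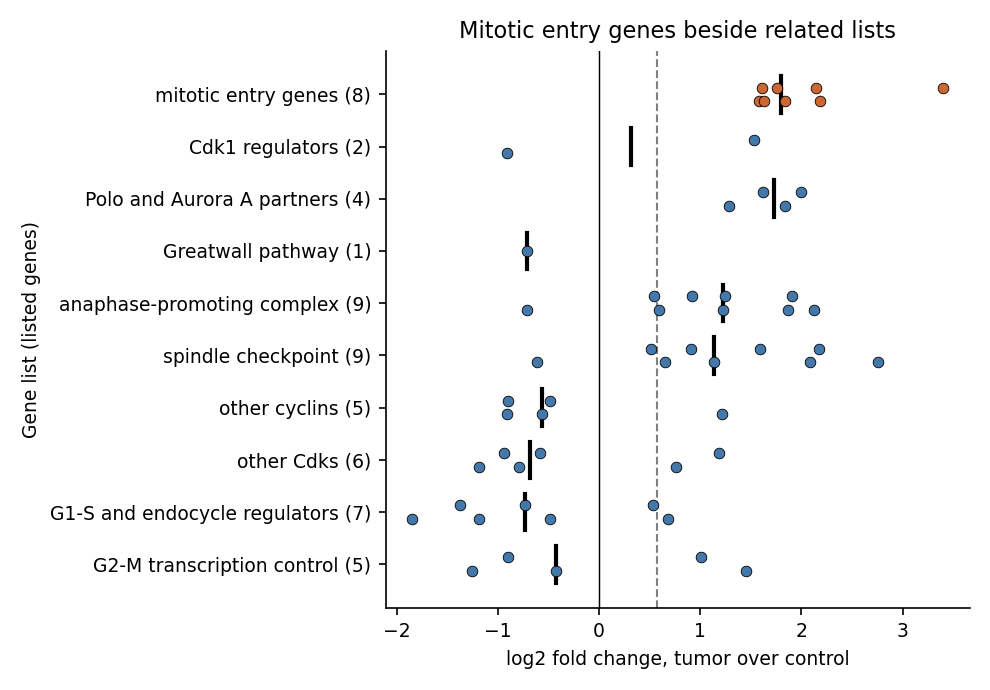
Log2 fold change (horizontal axis) of each listed gene in the mitotic entry set and 9 related lists (rows, number of listed genes in brackets), with black bars at list medians, a solid line at 0 and a dashed line at the median of all listed genes. The mitotic entry genes lie between 1.58 and 3.40, while the Greatwall pathway (1 gene), other cyclins, other Cdks, G1-S genes and G2-M transcription genes have medians below 0.

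The size of every fold depends on how libraries were scaled. Estimated scaled CPM summed over the listed genes came to 3.49 times as much in control (1.22e+06) as in tumor (351343). The control sum is above 1000000, so it is not a share of reads. Secretory cell and fat body markers alone summed to 273941 and 193698 in control, so scaling to equal sums depends in part on them. With the median of listed genes set to 0, which takes away 0.57, the 8 genes ranged from 1.01 (fzy) to 2.83 (stg). With the median of the 16 listed ribosomal protein genes set to 0 they ranged from 2.52 to 4.34. Those 16 are listed because they were called, 13 as lower and 3 as higher (RpL22, RpL22-like and RpL24-like, named after their values were seen), so they are not a reference known to be unchanged. With equal summed estimated CPM over listed genes the range was 3.38 to 5.20. No scaling turned the direction of any of the 8 genes. Scaling to ribosomal protein genes or equal sums raises every fold, so it could not turn a rise. Setting the median of listed genes to 0 lowers every log2 fold change by 0.57, less than the lowest of the 8, 1.58. The scalings are thus no test of the direction.

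**Figure D4:**
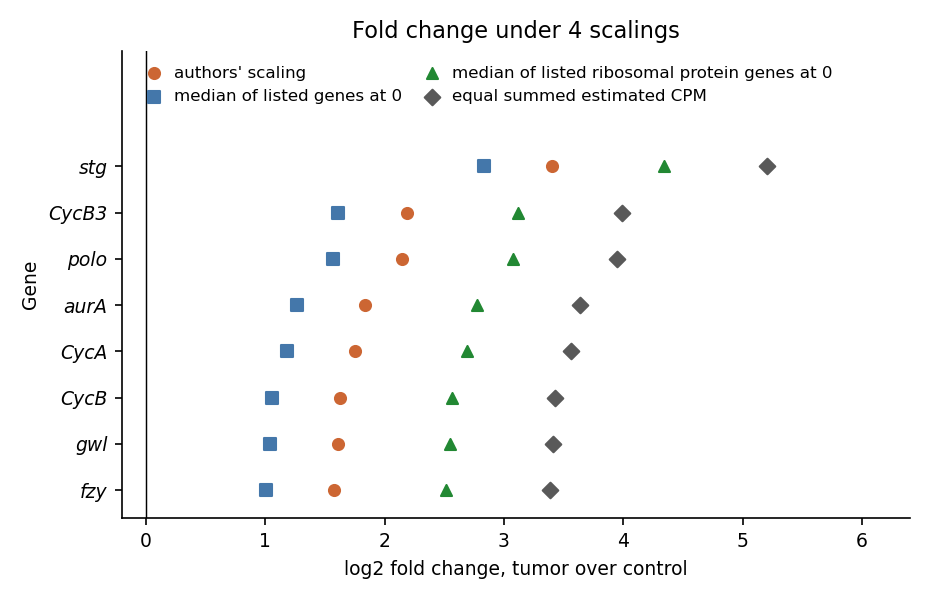
Log2 fold change (horizontal axis) of the 8 listed mitotic entry genes under the authors' scaling and 3 other scalings (symbols). Each scaling moves all genes by the same amount, and the lowest value, that of fzy with the median of listed genes at 0, is 1.01.

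Transcript length and other cell types moved with the comparison. Split into 5 classes of equal number by annotated transcript length, the listed genes had median log2 fold changes of -1.55, -1.06, -0.59, 0.99 and 1.60, from the shortest to the longest. Of the 8 genes 6 belonged to class 4, and aurA and fzy to class 3. Among all listed genes, 70.5% were higher in class 4 and 45.6% in class 3. Each of the 8 genes lay above the median of its class, by 0.62 (gwl) to 2.43 (aurA). These medians cover called genes only. That of class 3 is below 0, so any gene called higher in it, as aurA and fzy were, lies above it. The part of length in the result was not tested.

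Markers of imaginal cells were higher in 4 of 4 genes, with a median of 2.51 in the authors' deposited table, and their summed estimate went from 101 to 539 scaled CPM, beside 62.4 to 307 for the mitotic entry genes. These were esg, hth, hdc and ct, and none was fitted at 0 in either group. Markers of the polyploid secretory cells were lower in all 11 listed of 12, with a summed estimate of 273941 scaled CPM in control and 215 in tumor, and fkh was not listed. All 7 fat body markers were lower, from 193698 to 1616 scaled CPM, as were 4 of 5 muscle markers, from 1647 to 189. Hemocyte markers were higher in 7 of 8, from 32.0 to 1672 scaled CPM, and tracheal markers in 4 of 4, from 131 to 653. Neuroblast markers were higher in 3 of 5, from 3.66 to 39.7. Germline markers were higher in 2 of 6 (33.3%, near the 34.0% of all tested genes called higher), from 0.124 to 5.80, with vas and bam not listed. Against the same 34.0%, or 31.6% for lower calls, stand the other marker counts. The part of these cell types in the rise of the mitotic entry genes was not tested.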

How the data were processed

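RNA from 3 control and 3 tumor samples was counted with featureCounts and compared with DESeq2 (versions not stated), per the submitters' processing notes. The sources used here do not name the aligner, build, annotation, strand setting or scaling. Per the file headers, the authors' deposited gene rows hold log2 fold changes (shrunken and unshrunk), the average log2 CPM, and raw and adjusted p-values. Mean log2 CPM and unshrunk fold columns are not in DESeq2's usual output, so which tool made them is not settled. A second sheet gives the authors' numbers of calls under the headings 1.2 and 2, read as minimum folds, for tumor minus control. Heading 1.2 has 9384 tested genes, of which the table lists the 6156 called.

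No statistical test was run here, and the authors' adjusted p below 0.05 was counted. With m the mean CPM and F the fold, control was estimated as 2m/(1+F). Genes fitted at 0 (43) stayed out of sums. Ribosomal protein genes are symbols beginning RpL or RpS and a number, relatives such as RpL22-like included. Transcript lengths and overlaps came from the BDGP6 annotation (Ensembl release 115), matched by FlyBase identifier, with a length for 6111 listed genes. The build of the files is unknown, so no coordinates are printed. The rule named all 10 genes and allowed any listed gene of 9 related lists. Of 142 symbols, Cdc26 and Cdk10 were not found in the name tables, and both count as not listed in the shares of their lists. Members and lists were chosen with earlier results of these data known. Other settings were a stricter adjusted p, a 2-fold minimum, unshrunk folds, an expression filter, the mean and 3 scalings. Python 3.11.15, pandas 2.3.3 and matplotlib 3.10.9 were used.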

Additional observations from a re-analysis of the deposited data

How the results depend on the processing

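All 8 listed mitotic entry genes stayed higher in tumor at an adjusted p below 0.01 and at a 2-fold minimum. Unshrunk folds differed by at most 0.0027. All 8 were also higher under the 3 other scalings, of which those to ribosomal protein genes and equal sums could not turn a rise. Their median log2 fold change of 1.80 became 1.23 with the median of listed genes at 0, 2.73 with listed ribosomal protein genes at 0, 3.60 with equal summed CPM and 2.02 as a mean. Above the lower quartile of mean CPM (8.31 CPM) 5 of the 8 remained, with a median of 1.76. CycB3, aurA and gwl lie below it. Medians of related lists turned sign as follows. With the median of listed genes at 0, the Cdk1 regulators fell from 0.31 to -0.26. With ribosomal protein genes and equal sums in turn, the Greatwall pathway moved from -0.72 to 0.22 and 1.09, the other cyclins from -0.57 to 0.37 and 1.24, the other Cdks from -0.68 to 0.25 and 1.12, the G1-S list from -0.73 to 0.20 and 1.07, and the G2-M transcription list from -0.42 to 0.51 and 1.38. No paired analysis was possible because replicates have no values of their own in the files, and for the same reason no replicate could be left out. Depth per library is unknown, so how far low counts limit aurA or gwl cannot be given.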
